A study of Mus musculus with 16 samples.

Results

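The genes described here encode the main apolipoproteins and lipoprotein enzymes of the mouse liver. They are Apoa1, Apoa2, Apob, Apoc3, Apoe, Apoh, Lipc, Lcat, Mttp and Pltp. Every probe whose transcript accession belongs to one of these 10 genes was taken, whatever its values, which gave 12 probes among the 55681 on the array, and 10 of the 20660 named genes. Apoa2 and Apob had 2 probes each, called probe 1 for the brighter and probe 2 for the dimmer, and each of the other 8 genes had 1 probe. All 12 passed the filter on dim probes, as did 29685 probes in all.

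The liver packages triglyceride and cholesterol into very low density lipoproteins around apolipoprotein B and releases apolipoproteins A-I and A-II into high density lipoproteins. In the blood, lipases and lipid transfer proteins remodel these particles, and apolipoprotein E leads the remnants back to receptors on hepatocytes. Hepatocytes make most of the proteins described here and their messenger RNAs are among the most abundant of the liver.

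The animals were female B6C3F1 mice, a hybrid strain much used in toxicology, bought at 5 to 6 weeks of age, and 16 arrays were hybridised. They were gavaged over 21 days with furan, a liver toxicant and carcinogen of rodents, at 8 mg/kg body weight dissolved in corn oil, or with the oil alone, and liver was collected 4 h after the final dose. Tissue lay in formalin for 3 weeks or for 18 h before paraffin embedding, so the groups were furan at 3 weeks (4 samples), corn oil at 3 weeks (3 samples from 4 arrays), furan at 18 h (4 samples) and corn oil at 18 h (4 samples). RNA came from 2 sections of 10 µm at 3 weeks and from 1 such section at 18 h, so time in formalin and tissue input cannot be told apart. All RNA was strongly degraded, with integrity numbers between 1.3 and 2.4 per the labels. Cy5-labelled complementary DNA of each liver was hybridised against a Cy3-labelled pool of all samples, with no dye swap, and each value below is a log2 ratio of liver over that pool. A value therefore compares the same probe between samples and gives no order of levels between genes. Because whole sections were used, fewer cells of a type and less RNA per cell cannot be told apart.

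Probes well above background made up 38.1% ± 2.39 of all probes in furan livers (SD, n = 4) and 34.2% ± 1.77 in corn oil livers at 3 weeks (SD, n = 3). At 18 h they made up 53.7% ± 1.48 in furan livers and 47.3% ± 3.18 in corn oil livers (SD, n = 4 each), and the ranges of these 18 h groups did not overlap. Arrays 2.1 and 2.2 of the 3-week corn oil group share a sample number, correlated at r = 0.923 over all tested probes and were averaged as 1 sample. All 11 hepatocyte markers on the array, Alb and Ttr among them, passed the filter. The 12 member probes were well above background on 16 of 16 arrays, no spot of any array was saturated in the sample channel, and they lay between the 95.5th and the 99.8th percentile of brightness. Precision is limited by the number of arrays. Apoa1 and Apoe were printed in 10 spots each, and the median SD between spots of an array was 0.055 for Apoa1 and 0.055 for Apoe on the log2 scale.

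The RefSeq promoter table (250 bases before to 50 bases after a start) held 13 promoters for 9 of the 10 genes. The regions of 3 members are shown because these genes recur below: Lipc had the largest furan change of the members, the probes of Apob disagreed, and Pltp had the opposite sign to most members between times in formalin. The 13 promoters were searched on both strands for TATAAA (the letters of the TATA box) and AGGTCA (a half-site of nuclear receptors). They were also searched for TGNACTTTG (the letters preferred by HNF4) and GTTAAT (a half-site of HNF1). None of these contains another. Capitals mark a match.
Lipc promoter (GRCm38.p6, chr9:70952172-70952471, minus strand): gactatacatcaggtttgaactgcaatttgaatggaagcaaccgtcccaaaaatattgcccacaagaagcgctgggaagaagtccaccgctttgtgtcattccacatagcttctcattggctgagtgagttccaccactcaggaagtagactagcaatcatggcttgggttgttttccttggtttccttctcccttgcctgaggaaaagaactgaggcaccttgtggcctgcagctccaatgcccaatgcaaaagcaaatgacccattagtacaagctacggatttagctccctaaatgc
Apob promoter (GRCm38.p6, chr12:7977427-7977726, plus strand): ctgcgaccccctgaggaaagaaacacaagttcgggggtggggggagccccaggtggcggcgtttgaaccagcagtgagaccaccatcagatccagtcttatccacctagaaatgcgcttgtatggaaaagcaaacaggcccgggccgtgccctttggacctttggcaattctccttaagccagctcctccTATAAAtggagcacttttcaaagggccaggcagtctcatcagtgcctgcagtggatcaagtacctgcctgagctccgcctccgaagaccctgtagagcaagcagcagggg
Pltp promoter (GRCm38.p6, chr2:164857659-164857958, minus strand): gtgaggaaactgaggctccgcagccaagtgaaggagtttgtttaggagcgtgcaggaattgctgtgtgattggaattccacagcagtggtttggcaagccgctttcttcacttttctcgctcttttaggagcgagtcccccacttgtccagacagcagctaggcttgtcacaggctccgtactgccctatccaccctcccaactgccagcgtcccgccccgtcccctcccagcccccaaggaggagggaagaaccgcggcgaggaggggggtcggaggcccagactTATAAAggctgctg
TATAAA occurred in 4 of the 13 promoters (1 each of Apoa2, Apob, Apoe and Pltp), against 13.6% of all 32851 promoters in the table. AGGTCA occurred in 3 of the 13 (1 each of Apoa2, Apoh and Lipc, the last at its inner start, which is not shown), against 16.3% of all promoters. GTTAAT occurred in 1, of Apoe, against 7.10%, and TGNACTTTG in 0, against 1.41%. A match is a description of letters and not of binding, and its place relative to the start was not examined.

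The first comparison asked how furan changed these genes in livers fixed for 18 h. Hepatic lipase had the largest change, and Lipc fell to 35.5% of its corn oil level. Apoe, Apob, Apoa1, Lcat, Apoa2 and Mttp fell less, by at least 1 probe each, but with median centring in place of loess only Lipc and Apoe were called lower and Mttp turned sign. In limma with a term for the slide, which was read from the barcode in the scanner file names since the labels name none, 7 of 12 member probes were called lower at an adjusted p below 0.05 and 0 higher, where 26.8% of all tested probes were called lower, 20.4% higher and 47.2% in either direction. The median change of the member probes was -0.52, against -0.05 over all tested probes. Values of furan livers lay wholly below those of corn oil livers for 8 member probes and wholly above for 1, against 21.3% and 17.9% of all probes (39.2% in either direction). The size of these changes rests on the normalization, as given below, and the call of Lipc held in 23 of 23 alternatives.

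**Figure D1:**
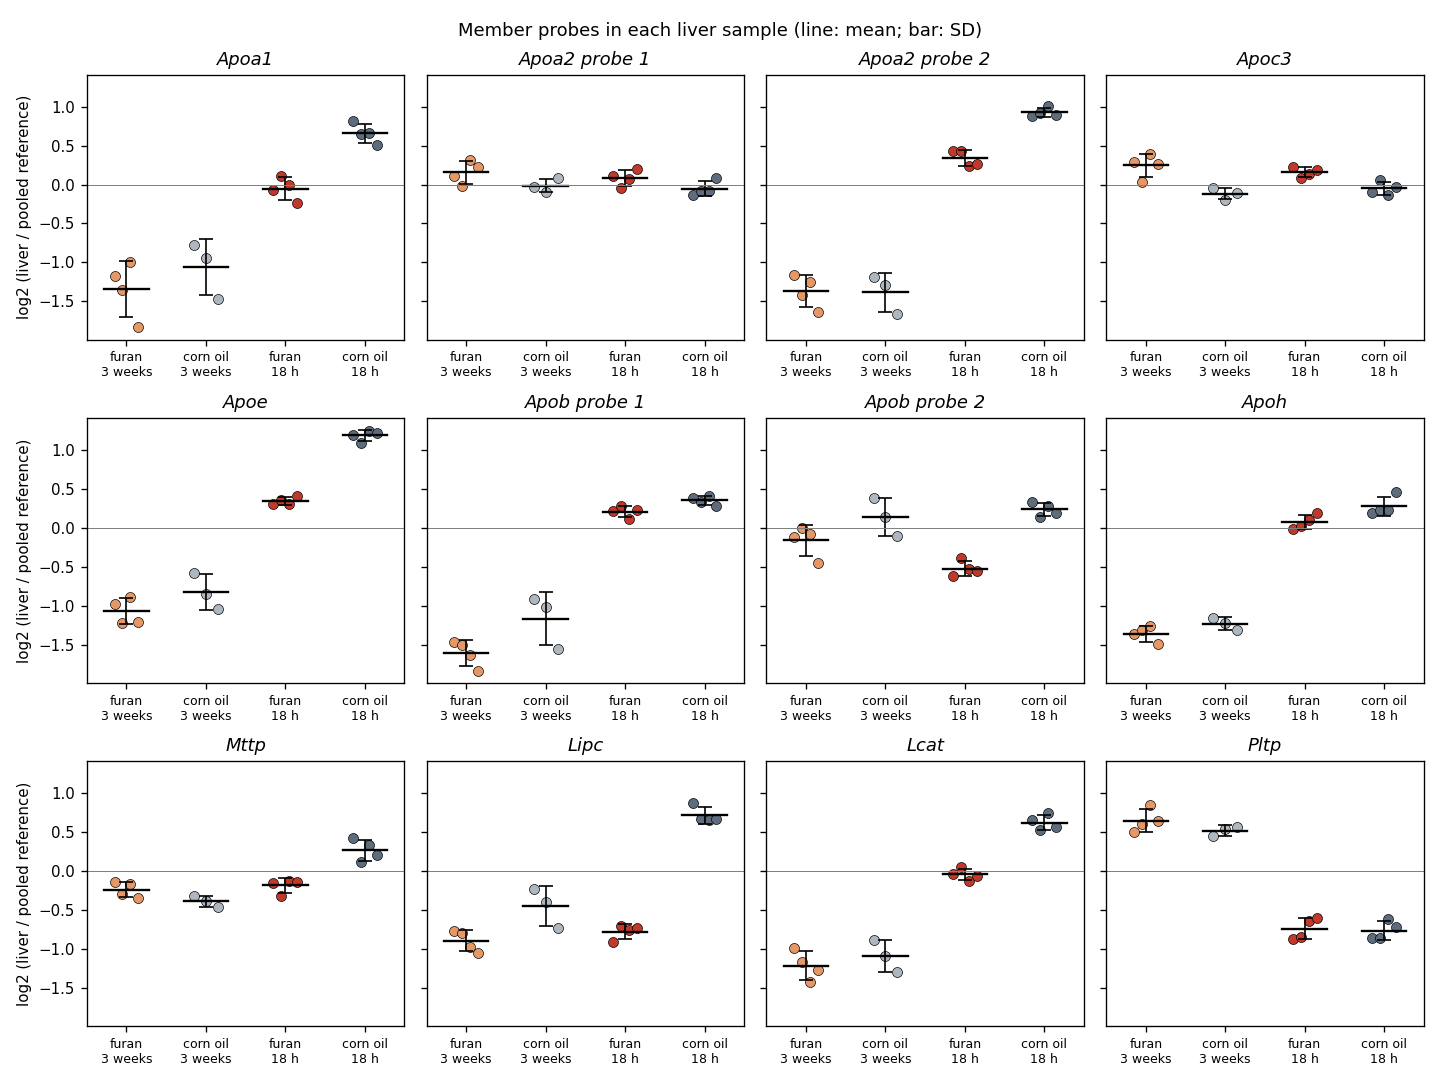
Log2 ratio of liver over the pooled reference (vertical axis) for each of the 12 probes in each sample (points), by group (horizontal axis), with the mean (line) and SD (bar). Lipc and Apoe of furan livers sit wholly below those of corn oil livers at 18 h, and the probes of Apoa2 and of Apob follow different courses between times in formalin.

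Lipc encodes hepatic lipase, which hydrolyses triglyceride and phospholipid of remnants and high density lipoproteins. It read -0.91, -0.70, -0.76 and -0.73 in furan livers, against 0.87, 0.66, 0.65 and 0.67 in corn oil livers at 18 h. The groups were far apart, and every furan liver lay below the pool while every corn oil liver lay above it. The change was -1.49 (SE 0.09, 95% interval -1.68 to -1.30, limma adjusted p = 5.33e-06), which ranked 41 by size among the 29685 probes. Before any loess fit Lipc read -0.71 to 0.15 in furan livers, against 0.44 to 0.90 in corn oil livers, and was the 1 member probe whose furan livers lay wholly below, as did 1.82% of all probes. Furan livers then lay wholly above for 2, Apoa2 probe 1 and Apoc3, against 25.1% of all probes, and 9 overlapped.

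Lcat encodes lecithin-cholesterol acyltransferase, which esterifies cholesterol on high density lipoproteins. It read -0.04, 0.05, -0.13 and -0.06 in furan livers, against 0.66, 0.52, 0.74 and 0.56 in corn oil livers, with no overlap. Lcat fell by 0.67 (SE 0.09, limma adjusted p = 0.000164). Pltp encodes the phospholipid transfer protein, which moves phospholipid between particles. It read -0.87, -0.84, -0.64 and -0.60 in furan livers, against -0.87, -0.87, -0.61 and -0.73 in corn oil livers. These groups overlapped, and the difference was 0.03 with a 95% interval of -0.19 to 0.24.

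Apoe, whose product is the ligand for remnant uptake, read 0.31, 0.36, 0.30 and 0.41 in furan livers, against 1.19, 1.09, 1.24 and 1.22 in corn oil livers. The groups were tight and apart, and Apoe fell by 0.84 (SE 0.08, limma adjusted p = 3.24e-05). Apoa1, the main protein of high density lipoproteins, read -0.07, 0.11, -0.01 and -0.24 in furan livers, against 0.82, 0.65, 0.66 and 0.51 in corn oil livers. All furan livers lay below all corn oil livers, and Apoa1 fell by 0.71 (SE 0.10, limma adjusted p = 0.000298). Mttp encodes the large subunit of the microsomal triglyceride transfer protein, which loads lipid onto apolipoprotein B. It read -0.15, -0.32, -0.13 and -0.14 in furan livers, against 0.42, 0.11, 0.33 and 0.20 in corn oil livers, and it fell by 0.45 (SE 0.09, limma adjusted p = 0.00243).

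Apoc3, an inhibitor of lipoprotein lipase, read higher in every furan liver: 0.23, 0.09, 0.14 and 0.19, against -0.09, 0.05, -0.13 and -0.03 in corn oil livers. Its difference of 0.21 (SE 0.08) missed the threshold in limma (adjusted p = 0.0575). Without the 18 h corn oil sample 3 it was 0.25 and was called. Apoh, also called beta-2-glycoprotein I, a phospholipid-binding plasma protein, read -0.02, 0.02, 0.10 and 0.19 in furan livers, against 0.19, 0.23, 0.23 and 0.46 in corn oil livers. Its groups met at 0.19, and its difference of -0.20 (SE 0.09) had an adjusted p of 0.0727 in limma. Without the 18 h corn oil sample 2 it was -0.26 and was called.

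**Figure D2:**
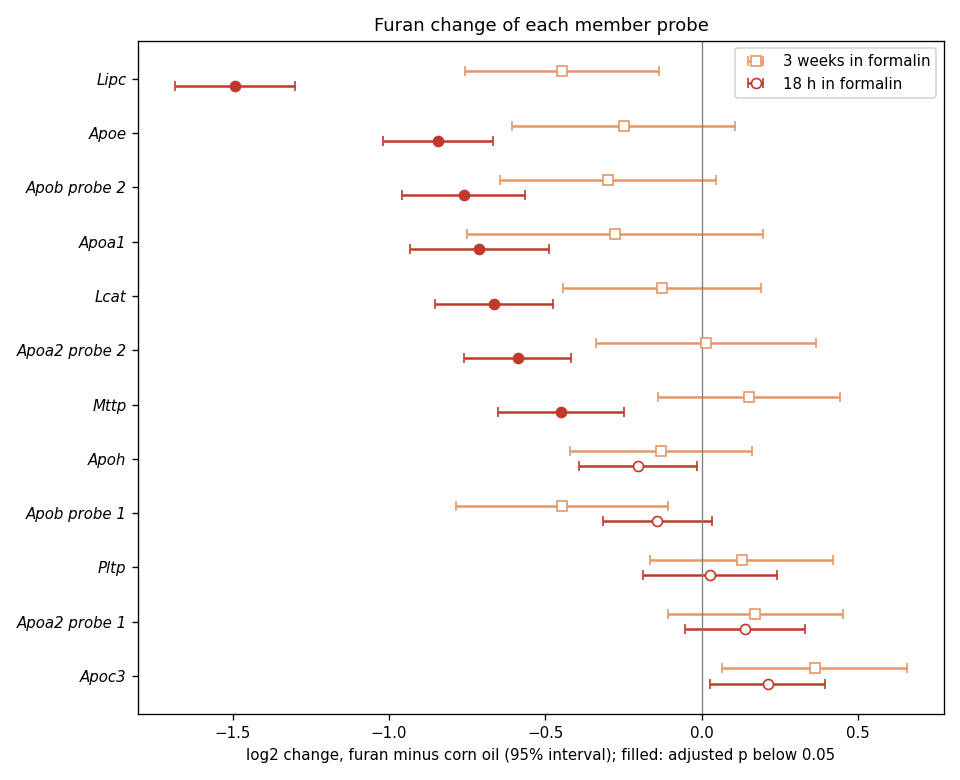
Log2 change of each member probe, furan minus corn oil, at 3 weeks (squares) and at 18 h (circles) in formalin, with 95% intervals from limma; filled symbols passed an adjusted p of 0.05. At 18 h 7 probes are filled, all to the left of 0 (under median centring only Lipc and Apoe stay called lower and Mttp turns sign), and at 3 weeks none is.

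The probes of Apoa2 and of Apob gave different answers although both probes of each gene carry the same transcript accession. Apoa2 encodes apolipoprotein A-II of high density lipoproteins. Its probe 2 read 0.43, 0.43, 0.24 and 0.26 in furan livers, against 0.89, 0.92, 1.01 and 0.90 in corn oil livers, and fell by 0.59 (SE 0.08, limma adjusted p = 0.000192). Its probe 1 read 0.11, -0.04, 0.07 and 0.20 in furan livers, against -0.13, -0.08, -0.09 and 0.08 in corn oil livers, a difference of 0.14 (SE 0.09) that was not called and whose groups overlapped. Apob encodes apolipoprotein B, the structural protein of very low density lipoproteins. Its probe 2 read -0.62, -0.39, -0.53 and -0.55 in furan livers, against 0.33, 0.14, 0.28 and 0.20 in corn oil livers, and fell by 0.76 (SE 0.09, limma adjusted p = 9.5e-05). Its probe 1 read 0.22, 0.28, 0.11 and 0.22 in furan livers, against 0.38, 0.33, 0.41 and 0.28 in corn oil livers. These values did not overlap either, but the difference of -0.14 (SE 0.08) was not called.

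The gap between the probes of a gene within a sample (probe 2 minus probe 1 on the log2 scale) does not change when an array is shifted as a whole. For Apoa2 the gap was 0.25 ± 0.18 in furan livers and 0.98 ± 0.12 in corn oil livers at 18 h (SD, n = 4 each). For Apob it was -0.73 ± 0.10 in furan livers and -0.11 ± 0.06 in corn oil livers (SD, n = 4 each). Both gaps were lower in all 4 furan livers than in all 4 corn oil livers, by 0.73 for Apoa2 and 0.62 for Apob. Each had an exact two-sided permutation p of 0.0286, the smallest that 4 against 4 samples allow, and 0.0381 after adjustment over the 8 gap comparisons made. Under the other ways of scaling and with each sample left out the Apoa2 difference ran from -0.96 to -0.66 and the Apob difference from -0.69 to -0.58. A ratio within an array shows that the probes changed unequally and not which of them changed. The share of other genes whose probe gap separates these groups was not computed. The gaps are therefore not shown to be particular to Apoa2 and Apob. For single probes the groups did not overlap for 39.2% of all probes.

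**Figure D3:**
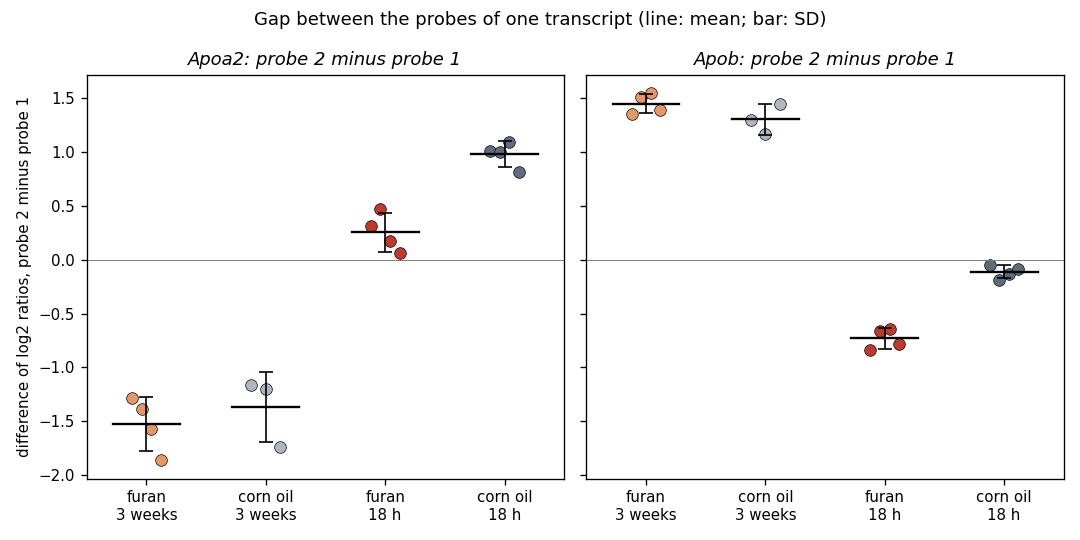
Difference of log2 ratios between probe 2 and probe 1 of Apoa2 (left) and Apob (right) in each sample (points), by group, with the mean (line) and SD (bar). At 18 h the furan livers lie below the corn oil livers for both genes, and at 3 weeks the groups overlap.

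How far the members as a group moved depended on the normalization. Loess within arrays subtracted 0.18 to 1.15 from the log2 ratios of member probes on the 18 h furan arrays, and between -0.25 and 0.46 on the 18 h corn oil arrays. With median centring in place of loess, the median over all tested probes was 0.10 in place of -0.05, and 78.6% of 12545 calls were higher in place of 43.2% of 14025. Among the 1485 brightest probes the median change was then 0.53, against -0.02 after loess. Under median centring Lipc (-0.97, adjusted p = 4.77e-07) and Apoe (-0.32, adjusted p = 0.0460) were still called lower in limma. The other 5 probes called lower after loess were no longer called, with Apoa1 at -0.18, Apob probe 2 at -0.23, Lcat at -0.12, Apoa2 probe 2 at -0.05 and Mttp at 0.08. In their place 5 probes were called higher, namely Apoc3 at 0.77, Apoa2 probe 1 at 0.68, Pltp at 0.57, Apob probe 1 at 0.39 and Apoh at 0.35. Over all 29685 tested probes 9865 were then called higher and 2680 lower. Among the 1485 brightest, which hold 9 member probes, 65.8% were called higher and 6.46% lower.

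The other 4 ways of scaling kept all 7 calls. Of these, the fit without background subtraction and the quantile scaling still used loess, so they do not test that step. Whether Agilent's ratio holds a like step was not checked, so it is not shown to test loess either. Among the 1485 brightest probes the median change was -0.01 with Agilent's ratio and 0.07 with the authors' table. It was -0.02 after loess and 0.53 with median centring. How the authors' value table was normalized is not given. Lipc was -1.53 without background subtraction, -1.62 with Agilent's processed log ratio, -1.41 with the authors' value table and -1.61 after quantile scaling. The authors' value table also called Apoc3 higher at 0.32 and Apoa2 probe 1 higher at 0.28. With the share of probes above background as a covariate, which nearly follows the dose groups at 18 h, Lipc alone of the member probes stayed called, with 595 calls over all probes. Without background subtraction Apob probe 1 (-0.25) and Apoh (-0.29) were called lower as well.

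**Figure D4:**
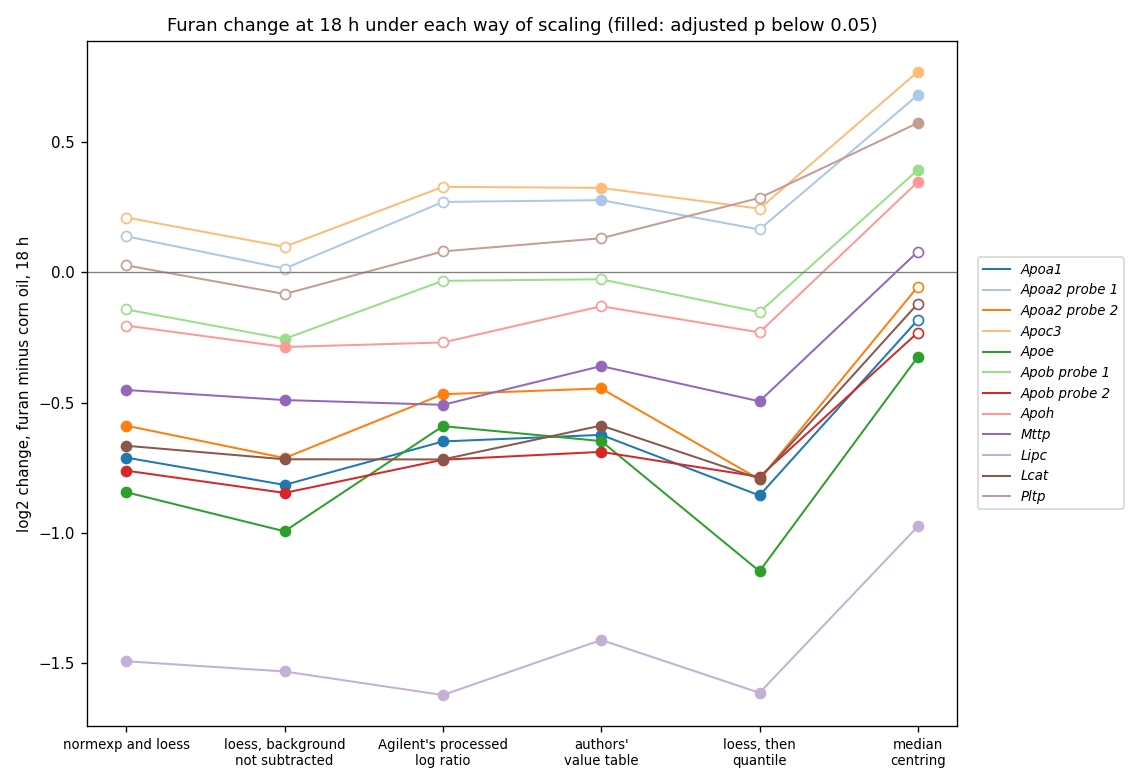
Log2 change, furan minus corn oil at 18 h (vertical axis), of each member probe (lines) under 6 ways of scaling (horizontal axis); filled points passed an adjusted p of 0.05. Lipc lies lowest under all 6, and under median centring the whole set lies higher, Mttp, Apob probe 1 and Apoh turn sign and 5 probes are called higher.

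The slides, each with 2 arrays of every group, gave like values. On slide 1 alone Lipc was -1.46 and on slide 2 alone -1.52, and Apoe was -0.83 and -0.85. The same 7 probes were called lower on each slide alone, where adjusted p in limma for Mttp was 0.0464 on slide 1 and 0.0451 on slide 2. Over all 29685 tested probes 5075 were called lower and 3076 higher on slide 1 alone. On slide 2 alone these were 4076 and 2973. The slides split the samples of the main fit and are not a separate experiment.

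By the brightest probe of each, 5 of 11 hepatocyte markers were called lower, 0 higher and 6 not called at 18 h. Of all probes 26.8% were called lower and 20.4% higher. The median change of the markers was -0.15. Over all 14 tested probes of these markers 7 were called lower and 0 higher, with a median of -0.33. Among those called were Ttr at -0.90 and Alb at -0.72. The markers' mean log2 ratio ran from -0.12 to 0.05 in furan livers and from 0.30 to 0.36 in corn oil livers. None of the 11 was at background. Blood cell markers were called lower for 5 of 10, led by the haemoglobin genes Hbb-bs at -1.06 and Hba-a1 at -1.01. Their mean ran from -0.58 to -0.31 in furan livers and from -0.15 to -0.06 in corn oil livers. Endothelial markers were called lower for 5 of 10 and higher for 2, and stellate and fibroblast markers for 4 and 4 of 11. Kupffer and macrophage markers were called lower for 4 and higher for 2 of 13, and over all 18 tested probes for 6 and 2. The part of any of these in the member changes was not tested. Under median centring the hepatocyte markers were called higher for 6 and lower for 2. Ttr at -0.37 was still called lower, and Alb at -0.19 was not called. Blood cell markers were then called lower for 3, Hbb-bs and Hba-a1 among them, and higher for 2. The haemoglobin gene Hbb-bt read 0.38 and was not called, and the blood cell marker Alas2 read 0.72 and was called higher.

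Other genes of lipoprotein metabolism, read by their brightest probe, were described by list at 18 h. Beside each count after loess stand the 26.8% of all probes called lower and the 20.4% called higher. Counts near those shares show nothing about a list. Counts under median centring have another background, since 9865 of 29685 tested probes were then called higher and 2680 lower. Of 14 other apolipoproteins 3 were called lower and 1 higher, shares no larger than those of all probes, with a median of -0.09. Apoc4, a minor apolipoprotein whose gene lies beside Apoe, fell by 0.83 (SE 0.09, limma adjusted p = 5.16e-05), Apom by 0.35 and Apod by 0.40. The other Apod probe read -0.09 and was not called. Over all 16 tested probes of the list 4 were called lower and 1 higher, with the other probe of Apol9a at -1.17 called lower. Saa2, an acute-phase apolipoprotein, rose by 0.63 (SE 0.09, limma adjusted p = 0.000326). Under median centring this list had 8 members called higher and 0 lower.

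Of 20 genes of particle assembly and secretion 10 were called lower and 3 higher, with a median of -0.28. P4hb, protein disulfide isomerase and the small subunit of the microsomal triglyceride transfer protein, fell by 1.23 (SE 0.10, limma adjusted p = 1.4e-05). Dgat1, which makes triglyceride, fell by 0.82, and Ces1d, a triglyceride hydrolase, by 0.73. Arf1, a GTPase of vesicle transport, rose by 0.54. Over all 23 tested probes of the list 12 were called lower and 3 higher. Other probes of Cideb at -1.05 and Sar1a at -0.55 were called lower. Median centring gave 2 lower and 7 higher in this list, with P4hb at -0.71 and Dgat1 at -0.69 still called.

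Of 12 lipases and remodelling factors 4 were called lower, near the share of all probes, and 0 higher, with a median of -0.10. These were Lipa, lysosomal acid lipase, at -0.47, Pla2g7, the platelet-activating factor acetylhydrolase, at -0.37, the paraoxonase Pon1 at -0.24 and Lmf1, a lipase maturation factor, at -0.23. Over all 13 tested probes of the list 5 were called lower and 0 higher, with the other probe of Lmf1 at -0.44 called lower. Median centring gave 1 gene lower, Pla2g7, and 8 higher.

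Of 17 tested genes for receptors and sterol transport 10 were called lower and 2 higher, with a median of -0.41. Over all 22 tested probes of the list 11 were called lower and 5 higher, with a median of -0.23. Other probes of Pdzk1 at 0.74, Lrpap1 at 0.37 and Vldlr at 0.32 were called higher, and that of Scarb1 at -0.40 lower. Lrp1, a receptor that takes up remnants, fell by 0.86 (SE 0.09, limma adjusted p = 5.1e-05). The lysosomal cholesterol carriers Npc1 and Npc2 fell by 1.06 and 0.87. Mylip, a ubiquitin ligase, fell by 0.63 by its brightest probe, and its other probe read -0.11 and was not called. Median centring gave 6 lower, these 4 among them, and 4 higher.

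Of 23 regulators of lipoprotein genes 7 were called higher and 5 lower, near the shares of all probes, with a median of 0.13. Hnf4a, the nuclear receptor that governs many liver genes, rose by 0.87 (SE 0.09, limma adjusted p = 3.67e-05) and Foxa1 rose by 0.61. Rxra, the shared partner of several nuclear receptors, fell by 1.32 and Foxo1 by 1.22. The other tested probe of Rxra read 0.06 and that of Foxo1 -0.002, and neither was called, so probes disagreed for these genes too. Over all 33 tested probes of the list 9 were called higher and 9 lower. Other probes of Mlxipl at -1.11, Ppargc1a at -0.73, Srebf2 at -0.52 and Nr5a2 at -0.26 were called lower. Those of Foxa2 at 0.45 and Nr1h3 at 0.25 were called higher. Median centring gave 15 higher and 2 lower in this list.

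At 3 weeks in formalin no member passed the test between furan and corn oil livers. Of the 12 member probes 0 were called in limma, where 0.118% of all probes were called (0.0876% higher and 0.0303% lower). At an unadjusted p under 0.05 were 3 member probes, of Lipc, Apoc3 and Apob (probe 1), against 13.8% of all probes, and the alternatives called 0 to 3 members. Furan livers lay wholly below corn oil livers for 1 member probe and wholly above for 1, against 5.85% and 7.54% of all probes (13.4% in either direction). Intervals were wide: with 4 against 3 samples the 95% interval of the Lipc difference ran from -0.76 to -0.14.

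Lipc read -0.77, -0.80, -0.97 and -1.05 in furan livers, against -0.23, -0.39 and -0.73 in corn oil livers at 3 weeks. The groups did not overlap, and the difference was -0.45 (SE 0.14, limma adjusted p = 0.214). Apoc3 read 0.29, 0.04, 0.39 and 0.27 in furan livers, against -0.05, -0.20 and -0.11 in corn oil livers. It lay higher in all 4 furan livers, as at 18 h, with a difference of 0.36 (SE 0.13, limma adjusted p = 0.271). Apob probe 1 read -1.47, -1.51, -1.63 and -1.84 in furan livers, against -0.92, -1.02 and -1.56 in corn oil livers, with an overlap through the third corn oil liver and a difference of -0.45 (SE 0.15). The other 9 probes differed by between -0.30 and 0.17. The 3-week corn oil sample 6 read lowest of its group for 9 of 12 probes.

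Among the proteins of high density lipoproteins, Apoa1 read -1.17, -1.36, -0.997 and -1.83 in furan livers, against -0.78, -0.94 and -1.47 in corn oil livers at 3 weeks. Apoa2 probe 1 read 0.11, -0.02, 0.32 and 0.22 in furan livers, against -0.03, -0.09 and 0.08 in corn oil livers. Its probe 2 read -1.17, -1.41, -1.25 and -1.64 in furan livers, against -1.19, -1.30 and -1.66 in corn oil livers. The groups overlapped for all 3 probes, and the widest spread was that of Apoa1. Lcat read -0.99, -1.17, -1.43 and -1.28 in furan livers, against -0.89, -1.09 and -1.30 in corn oil livers, which overlapped as well.

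In the assembly of very low density lipoproteins, Apob probe 2 read -0.12, 0.0009, -0.08 and -0.45 in furan livers, against 0.38, 0.14 and -0.11 in corn oil livers, with an overlap through corn oil sample 6. Mttp read -0.14, -0.30, -0.17 and -0.35 in furan livers, against -0.32, -0.39 and -0.47 in corn oil livers. Its furan livers lay toward the upper end of an overlapping range, where at 18 h they lay wholly below. Apoh read -1.36, -1.32, -1.26 and -1.499 in furan livers, against -1.16, -1.22 and -1.31 in corn oil livers, and overlapped.

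Under median centring 3 probes were called higher at 3 weeks, Apoc3 at 0.84, Apoa2 probe 1 at 0.67 and Pltp at 0.60, and Lipc was -0.09. Over all 29685 tested probes 2082 were then called higher and 235 lower. Among the 1485 brightest probes 33.3% were called higher and 0.202% lower. The authors' value table called 1 member probe, Apoc3. Probe gaps did not separate the 3-week groups: the Apoa2 gap was -1.53 ± 0.25 in furan livers (SD, n = 4) and -1.37 ± 0.33 in corn oil livers (SD, n = 3), with an exact permutation p of 0.457. The Apob gap was 1.45 ± 0.09 in furan livers and 1.30 ± 0.14 in corn oil livers, with an exact permutation p of 0.171 (0.196 after adjustment over the 8 comparisons). Of the 5 lists of other lipoprotein genes 0 genes were called in limma at 3 weeks. Under median centring 3 other apolipoproteins, 3 regulators, 2 assembly genes, 2 lipases and 1 receptor or sterol transport gene were called higher there and 0 lower.

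Whether the furan change itself differed between times was tested as the change at 3 weeks minus that at 18 h. It was called for 5 of 12 member probes, all positive, where 12.8% of all probes were called, 7.82% positive and 4.94% negative. For Lipc the furan change was -0.45 at 3 weeks and -1.49 at 18 h, a difference of 1.05 (SE 0.17, limma adjusted p = 0.00163), and this call held in 31 of 31 alternatives. Mttp had a furan change of 0.15 at 3 weeks and -0.45 at 18 h, a difference of 0.60 (limma adjusted p = 0.0138). Apoa2 probe 2 changed by 0.01 at 3 weeks and -0.59 at 18 h, a difference of 0.60 (limma adjusted p = 0.0236). Apoe changed by -0.25 at 3 weeks and -0.84 at 18 h, a difference of 0.59 (limma adjusted p = 0.0273). Lcat changed by -0.13 at 3 weeks and -0.67 at 18 h, a difference of 0.54 (limma adjusted p = 0.0321). Median centring kept Lipc alone, at 0.89. With the sample number as a block, Lipc was again the only member probe called, with 1565 calls over all probes. The call of Mttp held in 28 of 31 alternatives and that of Apoa2 probe 2 in 25 of 30. The call of Apoe held in 22 of 31 and that of Lcat in 17 of 31. The count of member probes fell to 2 without the 3-week corn oil sample 6. It fell to 3 without the 18 h corn oil sample 4, the 18 h furan sample 41 or the 18 h furan sample 43.

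Between the times in formalin, which also differ in tissue input, most member probes fell and Pltp rose. In furan livers 6 of 12 were called lower and 2 higher at 3 weeks than at 18 h, where 32% of all probes were called lower and 35.1% higher (67.2% in all). In corn oil livers 8 were called lower and 1 higher, where 30.8% of all probes were called lower and 28.6% higher (59.4% in all). The times did not overlap for 6 lower and 1 higher member probes in furan livers, against 27.8% and 29.8% of all probes (57.6% in all), and for 8 lower and 1 higher in corn oil livers, against 30% and 28.6% (58.6% in all). The median change of the members was -0.65 in furan livers and -1.34 in corn oil livers, against 0.03 in furan and -0.0002 in corn oil livers over all tested probes. Under median centring the median over all tested probes was -0.29 in furan livers and -0.24 in corn oil livers.

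Apoe read -0.98, -1.22, -0.89 and -1.21 in furan livers at 3 weeks, against 0.31, 0.36, 0.30 and 0.41 at 18 h, and it fell by 1.42 (SE 0.11). In corn oil livers it read -0.58, -0.85 and -1.04 at 3 weeks, against 1.19, 1.09, 1.24 and 1.22 at 18 h, and it fell by 2.01 (SE 0.12). The times did not overlap in either treatment. Apoa1, Lcat, Apoh, Apob probe 1 and Apoa2 probe 2 fell likewise, with changes of -1.82 to -1.17 in furan livers and of -2.31 to -1.51 in corn oil livers. Lipc fell by 1.17 in corn oil livers (SE 0.12, limma adjusted p = 5.13e-07), while in furan livers its change was -0.12 and was not called. Mttp fell by 0.66 in corn oil livers and changed by -0.06 in furan livers, which was not called. Median centring called both lower in furan livers as well, Lipc at -0.75 and Mttp at -0.73.

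Pltp went the other way. It read 0.50, 0.60, 0.84 and 0.64 in furan livers at 3 weeks, against -0.87, -0.84, -0.64 and -0.60 at 18 h, and rose by 1.39 (SE 0.10). In corn oil livers it read 0.44, 0.54 and 0.57 at 3 weeks, against -0.87, -0.87, -0.61 and -0.73 at 18 h, and rose by 1.29 (SE 0.11). Every 3-week sample lay above the pool and every 18 h sample below it, and the rise was called under every alternative run, from 1.02 to 1.68 in corn oil livers. Apoc3 and Apoa2 probe 1 differed by less than 0.10 between times in either treatment and were not called. In corn oil livers both were called lower with Agilent's processed log ratio (Apoc3 at -0.45) and with the authors' value table (Apoc3 at -0.23), which turned the sign of Apoa2 probe 1. In furan livers both were called higher without background subtraction, at 0.20 each.

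**Figure D5:**
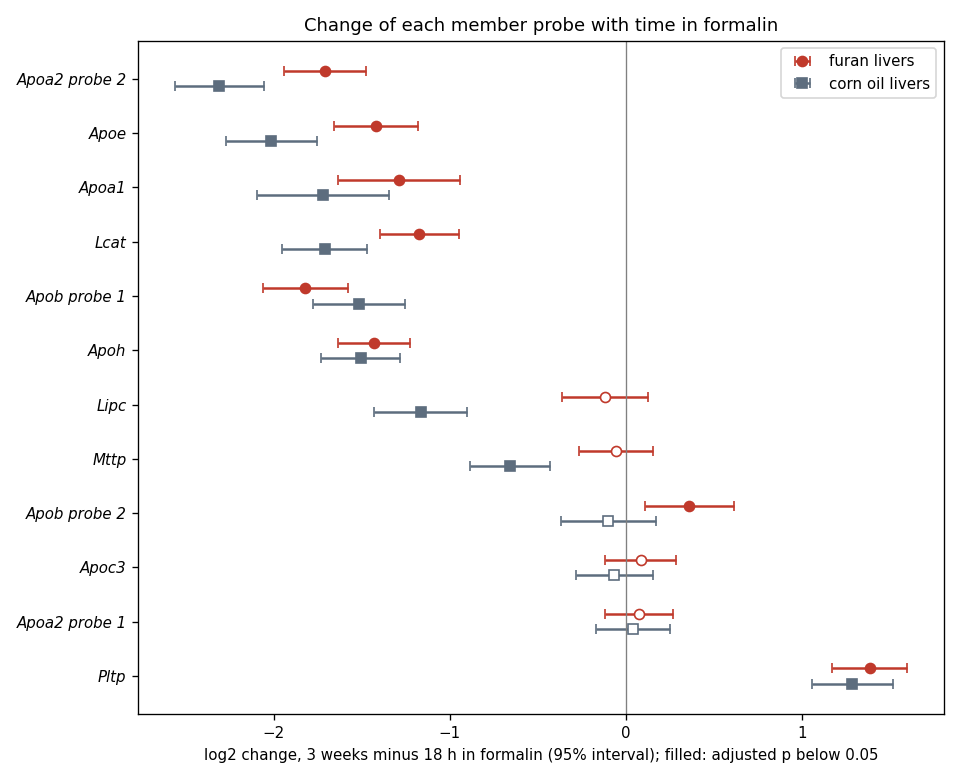
Log2 change of each member probe between 3 weeks and 18 h in formalin in furan livers (circles) and corn oil livers (squares), with 95% intervals from limma; filled symbols passed an adjusted p of 0.05. Pltp alone lies to the right of 1, and probe 1 and probe 2 of Apoa2 lie more than 1 log2 unit apart in both treatments, as do those of Apob.

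The probes of Apoa2 and of Apob also disagreed between times. In corn oil livers Apoa2 probe 2 fell by 2.31 (SE 0.12) and probe 1 changed by 0.04. For Apob it was the brighter probe that fell: probe 1 fell by 1.52 (SE 0.12) and probe 2 changed by -0.10, while in furan livers probe 1 fell by 1.82 and probe 2 rose by 0.36 (SE 0.12, limma adjusted p = 0.0131). The groups of that rise overlapped, its call held in 19 of 23 alternatives, and it was 0.18 with Agilent's ratio and 0.17 with median centring, neither called. The Apoa2 gap was -1.37 ± 0.33 in corn oil livers at 3 weeks (SD, n = 3), against 0.98 ± 0.12 at 18 h (SD, n = 4). The Apob gap was 1.30 ± 0.14 at 3 weeks, against -0.11 ± 0.06 at 18 h in the same livers. Times did not overlap for either gene in either treatment, and each of the 4 comparisons had an exact permutation p of 0.0286, adjusted to 0.0381, the smallest these samples allow. The Apoa2 gap was thus lower and the Apob gap higher at 3 weeks, so the probe number gives no direction. The share of other genes whose gap separates the times was not computed. For single probes the times did not overlap for 57.6% of all probes in furan livers and 58.6% in corn oil livers.

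Across the 15 samples the member probes that fell between times had similar profiles, and Apoe with Lcat was the closest pair (r = 0.987). Pltp ran opposite to them, with r = -0.974 against Apob probe 1. The samples share their groups, so these coefficients also reflect differences between groups, in time in formalin with tissue input and in furan. By the same measure the tested probes most like Lipc were those of Tmem254a (r = 0.985), Il15ra (r = 0.978) and Tm7sf2 (r = 0.972). Those most like Apoe were Adtrp (r = 0.996), Serpina1d (r = 0.994) and Azgp1 (r = 0.994), and those most like Apoc3 were Gtf2h5 (r = 0.933), Bhmt (r = 0.872) and Mre11a (r = 0.839).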

How the data were processed

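Two-colour Agilent arrays of mouse liver were analysed per probe. The members and the gene lists were chosen with earlier results of these data known. The authors read the arrays with Agilent Feature Extraction 11.0.1.1, per the file headers, and the deposited scanner files hold median spot and background intensity, not normalized. Agilent's processed log10 ratio of sample over reference, per the file headers, and the authors' deposited log2 value table were used as alternatives. That table's scale and direction follow the scanner ratios, its normalization is not given in the sources used here, and its column medians ran from -0.00919 to 0.0247. The array design is annotated on mm9, per the file headers, and probe positions were not used here. 

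Intensities were corrected with normexp (offset 50), loess-normalized within arrays (limma 3.58.1, R 4.3.3), turned to log2 ratios and averaged over spots. A probe was kept if well above background on 3 or more arrays of any group, and kept probes were fitted with lmFit and eBayes, with slide (from the scanner files' barcode) as a term, and adjusted by Benjamini-Hochberg over 29685 probes at 0.05. Furan was compared with corn oil within each time, and times and the difference of effects over all groups. Probe gaps were compared by exact permutation tests. The labels number the samples but do not say that each is a separate animal, so p-values measure the spread between these samples. Sample numbers recur at both times, and the main fits and gap tests treated samples of different times as unpaired. The fits were tested on simulated data. Named genes are all member probes, up to 4 called genes with the smallest p of each list, and the 3 most correlated probes of each member (3 members printed). Alb, Ttr, Hbb-bs, Hba-a1, Hbb-bt and Alas2 were named after their values were seen, as were the other probes of listed genes. Alternatives covered background correction, scaling, filters, slide, sample number as a block, single samples and thresholds.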

Additional observations from a re-analysis of the deposited data

Results flagged for a closer look

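Each probe in each group of 4 samples was tested for a sample apart from the rest. Of these 36 sets 3 held one, and chance gives about 1 in 20 for a single set. The sets share samples and arrays, so they are not independent. Lipc read 0.874 in the 18 h corn oil sample 2, above the other corn oil livers. Apoh read 0.456 in the 18 h corn oil sample 6, above the others. Mttp read -0.324 in the 18 h furan sample 42, below the others.

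In the main fit the furan change differed between the times in formalin, by the test of the difference itself, for 5 member probes. Of these calls only that of Lipc held in all 31 alternatives. It was the only 1 left with median centring and with the sample number as a block. The change at 3 weeks minus that at 18 h was 1.05 for Lipc, 0.602 for Mttp, 0.602 for Apoa2 probe 2, 0.595 for Apoe and 0.537 for Lcat.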

How the results depend on the processing

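Of the member results under alternatives, 1381 kept direction and side of the threshold, 48 lost and 28 gained a call, 40 changed sign with no call on either side, and 5 turned sign with a call on at least 1 side. The 5 were, under median centring at 18 h, Apob probe 1 at 0.3941, Apoh at 0.3476 and Mttp at 0.0801, and, for time in corn oil livers, Apoa2 probe 1 at -0.4088 with Agilent's log ratio and -0.2426 with the authors' table. Apart from construction (fewer probes, samples or a lower threshold), the cause was not tested.

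For furan at 18 h, called probes over the array numbered 9121 among probes above background on all arrays, 8151 and 7049 on slides 1 and 2 alone, 595 with the share above background as a covariate (1 member probe) and 9023 at an adjusted p of 0.01. At 3 weeks they numbered 450 without background subtraction, 0 with Agilent's ratio, 312 with the authors' table (1 member probe), 2317 with median centring (3 member probes), 130 above background on all arrays, 72 without the slide term, 0 and 265 on slides 1 and 2, 20 with a trended robust prior, 322 with arrays 2.1 and 2.2 apart, 17 and 22 with only 1 of them, 1299 with all 4 groups in 1 fit, 0 with the covariate and 6 at 0.01. Leaving out 1 sample gave 0 (without corn oil 6) to 770 (without corn oil 4). For the difference of furan effects they numbered 2286 with Agilent's ratio, 2222 with no filter (2 member probes) and 1247 at 0.01 (1 member probe), and 1 member probe was called with median centring. Leaving out 1 sample gave 2 to 6 member probes. Between times they numbered 11450 in furan and 10871 in corn oil livers above background on all arrays, and 4463 and 5639 with the covariate.

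With the sample number as a replicate block, 1565 probes and 1 member probe were called for the difference of effects. Same-numbered samples of the 2 times correlated at 0.019 to 0.096 in furan and 0.029 to 0.182 in corn oil livers, all 7 above 0, and differently numbered samples at -0.1625 to 0.0957. Of the 7 samples at 3 weeks 5 correlated best with their own number, a hint from the data and not the design. The labels reuse these numbers at both times. The main fits took no pairing, since most same-number values were under 0.1, but such low values do not exclude one. Leaving out a sample ended 15 and made 4 member calls, nearly all of them for the difference of effects. At 3 weeks fewer probes stood above background and corn oil had 3 samples, and their part in the low count of calls was not tested. No dye swap was made, so dye bias is not balanced.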
